A study of Mus musculus with 24 samples.

Results

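Foxa3 sites that lay outside long runs of peaks and were called only in the fibroblast-derived line made with Foxa3 are described here: 2716 regions, or 16.1% of the 16880 regions that Foxa antibodies gave in induced hepatocyte-like (iHep) cells. Peaks of 9 lists were merged wherever they overlapped by at least 1 bp, from 3 Foxa1 lists of line 4a1, 3 Foxa2 lists of line 4a2 and 3 Foxa3 lists of line 4a3. Of the 4859 merged regions with a 4a3 peak, 4070 held no peak of lines 4a1 or 4a2. A further 1354 of these touched a dense chain, a run of at least 4 peaks of 1 Foxa3 list with gaps of up to 10 kb, and were set aside. The 2716 that remained, 55.9% of the 4a3 regions, are called isolated 4a3-only sites here, although 1110 of them (40.9%) had another such site within 10 kb. They were chosen on the presence of peaks in these 9 lists, so their number, rank, width and recurrence in the 4a3 lists are given as a description.

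The cells were C57BL/6 mouse embryonic fibroblasts of embryonic day 13.5, infected with Foxa1, Foxa2 or Foxa3 (lines 4a1, 4a2 and 4a3), each together with Hnf4alpha, and kept as iHep cells. Hepatocytes came from livers of C57BL/6 adults aged 10 weeks and have no introduced factor in their labels. Whether a line was 1 clone, and whether replicates were separate inductions, is not given in the sources used here. Line 4a3 gave 2 Foxa3 libraries with EGS in the title, a term the labels do not spell out, and 1 without it (non-EGS). Each was a chromatin immunoprecipitation library with 1 deposited peak list. In iHep cells each line goes with its own introduced factor and its own antibody, and effects of these cannot be told apart. Expression was not measured, so the cell type was not checked against marker genes.

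Foxa proteins are forkhead factors with a winged-helix DNA-binding domain. They can bind sites in closed chromatin and are known as pioneer factors of liver and gut. All 3 family members are expressed in adult liver, and any of the Foxa proteins, together with the nuclear receptor Hnf4alpha, can turn mouse fibroblasts into iHep cells. The coordinates are those of the mm9 build. No gene or sequence of that build was used here, so the sites are named by position.

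Most of the isolated 4a3-only sites rested on 1 library. The non-EGS library alone gave 2209 of them (81.3%), EGS replicate 1 alone gave 294 (10.8%) and EGS replicate 3 alone gave 2. Both the non-EGS library and EGS replicate 1 held 206 (7.58%), and all 3 libraries held 5. In all, 211 sites (7.77%, exact 95% Clopper-Pearson interval 6.79 to 8.84) recurred in at least 2 libraries of the line. The lists differed in length, with 4317 peaks for the non-EGS library, 1246 for EGS replicate 1 and 46 for EGS replicate 3, and their sequencing depth is unknown. Isolated peaks of this line alone made up 56.1%, 41.6% and 19.6% of those 3 lists. Without EGS replicate 1 the share in at least 2 libraries was 0.204%, and without the non-EGS library 1.12%. Intervals of this kind cover counting error only and treat sites as independent.

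Recurrence was lower than among the isolated 4a3 regions that also held a peak of line 4a1 or 4a2. Of those 685 shared regions, 107 (15.6%, 13 to 18.6) held peaks of at least 2 libraries of line 4a3. The direction of the look-up mattered. Of the 518 peaks of EGS replicate 1 at isolated 4a3-only sites, 43.2% (38.9 to 47.6) were found in the longer non-EGS list, against 40.1% (34.2 to 46.2) of its 272 peaks at shared isolated regions. The intervals overlap. Of the 2421 non-EGS peaks at the 4a3-only sites, 8.76% (7.66 to 9.95) were found in EGS replicate 1, against 18.8% (15.6 to 22.3) of 554 at shared regions. Read from the longer list, the shared regions recurred more often, a difference over regions that has no replicate test.

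The peaks at isolated 4a3-only sites were narrow, and in the 2 longer lists their scores were spread over most of the range. Each peak carries a score set by the authors, used here only to rank peaks within a list, as a percentile with 100 for the highest. In the non-EGS list the 4a3-only peaks had a median percentile of 48.8, with quartiles of 23 and 71.6. In EGS replicate 1 the median was 52.0, with quartiles of 24.2 and 72.2. The 9 peaks of EGS replicate 3 had a median of 69.6, with quartiles of 56.5 and 77.2. At shared isolated regions the medians were 48.8 and 47.2 in the same lists. In lines 4a1 and 4a2 the matching isolated single-line peaks ranked lower in their lists, with medians between 30.4 and 41.2 in the 6 libraries. Scores were heavily tied, with 493 distinct values among the 4317 non-EGS peaks, so ranks are coarse.

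The merged sites had a median width of 162 bp, with quartiles of 134 and 219 bp, and together covered 546 kb of the 1523 kb of all 4a3 regions. A total of 66 (2.43%) were wider than 500 bp and 11 wider than 1 kb. Within the non-EGS list the quartiles of peak width were 136 and 222 bp at the 4a3-only sites and 138 and 243 bp at shared isolated regions. In EGS replicate 1 the medians were 140 bp and 138 bp. Sites in 2 or 3 lists had a median width of 268 bp, against 158 bp for sites in 1 list, and merging itself widens a region.

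Recurrence followed the score. In the lowest decile of the non-EGS list, 7 of 251 isolated 4a3-only peaks (2.79%) were found in another list of the line, and in the highest decile 64 of 174 (36.8%). In EGS replicate 1 the shares were 10 of 35 (28.6%) and 42 of 58 (72.4%). Peaks of the highest decile were also wider, with a median of 274 bp in the non-EGS list against 149.5 to 184 bp in the 9 lower deciles. The share of a decile that consisted of such peaks was 58.9% (54.1 to 63.6) at the bottom of the non-EGS list and 39.5% (34.9 to 44.3) at the top. In EGS replicate 1 it was 35.7% (26.3 to 46.0) at the bottom and 44.6% (35.9 to 53.6) at the top, with overlapping intervals.

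**Figure D1:**
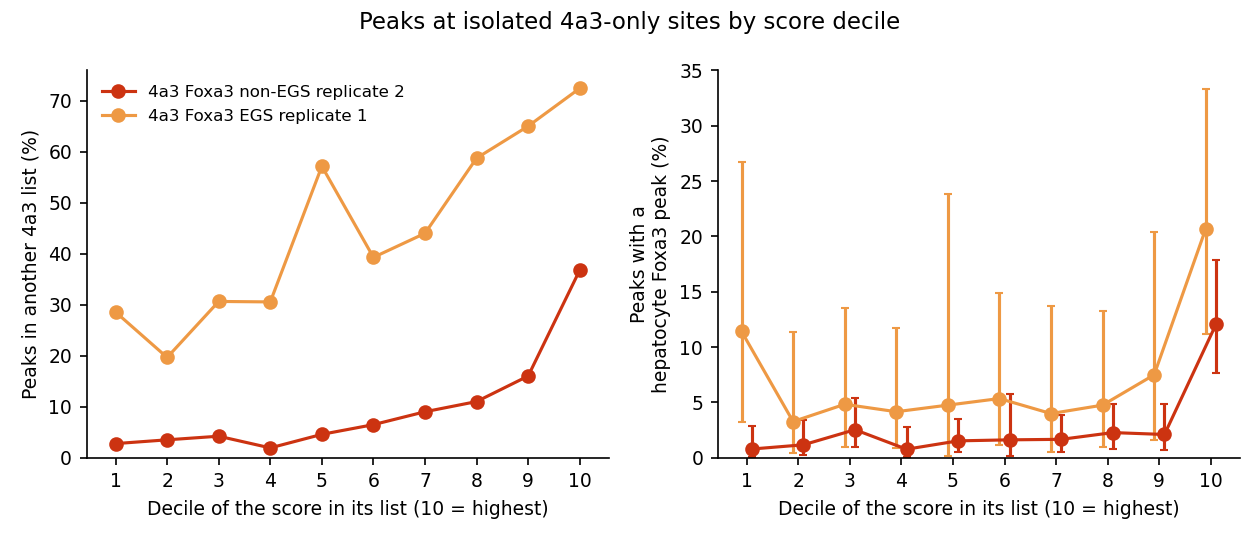
Peaks at isolated 4a3-only sites by decile of the score within their list (x axis, 10 = highest), for the non-EGS library and EGS replicate 1. The left panel gives the percentage found in another Foxa3 list of line 4a3, which rose from 2.79% to 36.8% in the non-EGS list, and the right panel the percentage overlapping a hepatocyte Foxa3 peak with exact 95% intervals, which was highest in decile 10 of both lists.

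The 5 sites in all 3 libraries are the best replicated ones. The first, on chromosome 11 (69571649 to 69572453), ranked 15th by score in EGS replicate 1, 4th in EGS replicate 3 and 8th in the non-EGS list. The second, on chromosome 5 (115939268 to 115940299), held 2 peaks of EGS replicate 1, and its best ranks were 23rd, 6th and 226th in the same order. The next 2 were also on chromosome 11. That from 101519137 to 101519572 ranked 10th, 11th and 12th, and that from 115885002 to 115885848 ranked 5th, 16th and 32nd. The fifth, on chromosome 13 (23713161 to 23714818), held 2 peaks of EGS replicate 1 and 3 of EGS replicate 3, and its best ranks were 85th, 13th and 30th. All 5 were near the top of the non-EGS list, at percentile 94.8 or above, and all 5 overlapped a hepatocyte Foxa3 peak. None of the 5 held a Flag peak or a hepatocyte Foxa1 or Foxa2 peak. None was a single peak by the gap of up to 10 kb. The sites at 69571649 and on chromosome 5 lay in chains of 2 peaks, and the others in chains of 3. The site at 101519137 was 11.3 kb from a dense chain.

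The short list of EGS replicate 3 touched 7 isolated 4a3-only sites, the 5 above and 2 neighbours on chromosome 11 (115881334 to 115881618 and 115882046 to 115882161), which lie within 4 kb of the site at 115885002. It touched none of the 685 shared isolated regions. Its 9 peaks at these 7 sites lay on 3 chromosomes.

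Among sites in 1 list, the highest percentiles in the non-EGS list were 98.9 on chromosome 6 (135015705 to 135017017), 98.4 on chromosome 6 (117829285 to 117829560) and 97.9 on chromosome 11 (59778176 to 59778683). In EGS replicate 1 they were 98.1 on chromosome 4 (3762493 to 3762769), 97.5 on chromosome 5 (91568625 to 91568970) and 96.7 on chromosome 11 (53583600 to 53583854). None of these 6 held a hepatocyte or Flag peak, although all ranked among the top 100 of their list. The widest sites were on chromosome 10 (59411135 to 59414681, 3547 bp) and chromosome 4 (135699615 to 135703150, 3536 bp). At both, the width came from 1 wide non-EGS peak, ranked 10th and 74th, over a narrow peak of EGS replicate 1 of 175 bp and 104 bp. The site on chromosome 4 held 3 hepatocyte Foxa3 peaks and that on chromosome 10 none.

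Sharing with adult hepatocytes was next examined, since the hepatocyte lists played no part in choosing the sites. A hepatocyte Foxa3 peak lay on 63 of the 2716 isolated 4a3-only sites (2.32%, 1.79 to 2.96). The background was 1.61% of all 16880 iHep regions and 4.38% of the 4859 regions of line 4a3. The share was 1.90% (1.01 to 3.22) for the 685 shared isolated regions and 9.45% (7.95 to 11.1) for the 1354 4a3-only regions in dense chains. So the isolated 4a3-only sites met hepatocyte Foxa3 peaks less often than those in dense chains, with intervals that do not overlap. The interval of the shared isolated regions overlaps that of the isolated 4a3-only sites. The merged regions differ in width, with a median of 162 bp for the isolated 4a3-only sites, 567 bp for the shared isolated regions, 224 bp for the 4a3-only regions in dense chains and 430 bp for the isolated 4a2-only regions, and the part of width in these shares was not tested. In the other lines the isolated single-line regions gave 0.156% (0.0831 to 0.267) of 8331 for line 4a2 and 0.194% (0.0235 to 0.699) of 1031 for line 4a1. Those lines used antibodies to Foxa2 and Foxa1, and only line 4a3 used one to Foxa3. With the hepatocyte list of their own factor the shares were 0.300% (0.194 to 0.443) for line 4a2 and 0.679% (0.273 to 1.39) for line 4a1. Those hepatocyte lists are shorter than that of Foxa3. Without the non-EGS library of line 4a3 the same rule gave 626 sites, of which 10.1% held a hepatocyte Foxa3 peak. Regions that only its dense chains had set aside count as isolated in that setting, so the 626 are not all among the 2716. Each hepatocyte antibody gave 1 library, so these shares have no replicate check.

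The other hepatocyte antibodies hardly met these sites. By the rule the sites hold no Foxa1 or Foxa2 antibody peak of lines 4a1 and 4a2, while the backgrounds given here include regions that do. The part of the rule in these low shares was not tested. Of the 2716, 1 overlapped a hepatocyte Foxa2 peak (0.0368%, up to 0.205), against a background of 0.752% of all iHep regions and 0.782% of the 4a3 regions. Among the shared isolated regions it was 32 of 685 (4.67%, 3.22 to 6.53). None overlapped a hepatocyte Foxa1 peak, which allows a share of up to 0.11% (3 counts of the total). The background was 0.616% of all iHep regions and 0.103% of the 4a3 regions, so a lower share than in line 4a3 as a whole is not shown. EGS replicate 2 of line 4a1 weighed on the background of all iHep regions, with such a peak on 94 of its 98 peaks in dense chains. The hepatocyte lists were of unequal length, with 1091 peaks for Foxa3, 244 for Foxa2 and 166 for Foxa1.

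**Figure D2:**
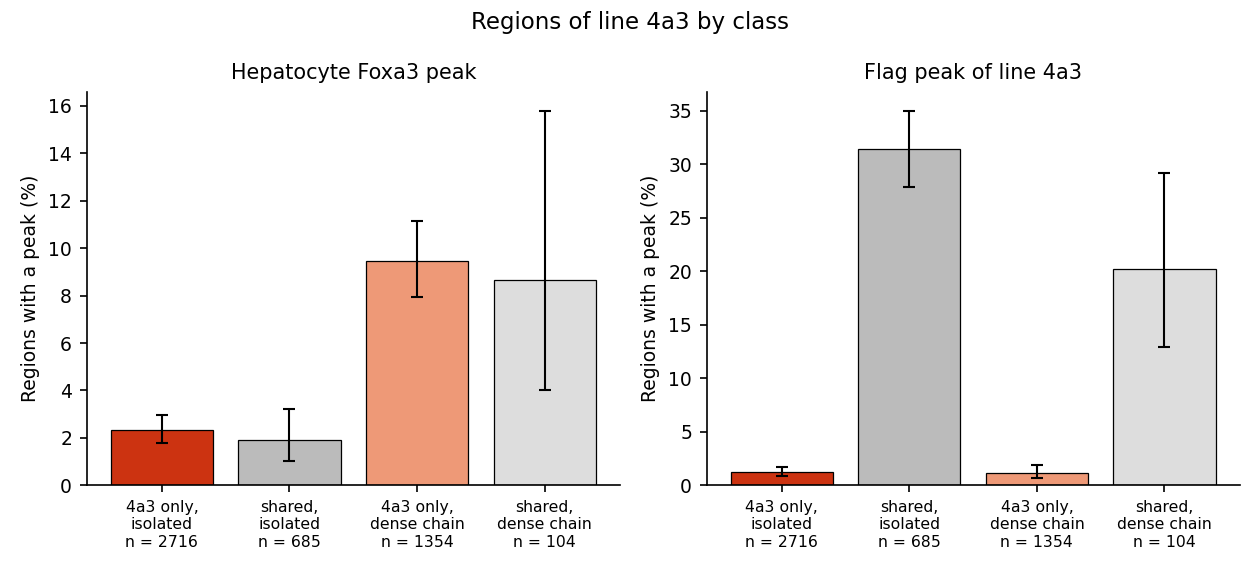
Share of 4a3 regions with a hepatocyte Foxa3 peak (left) and with a Flag peak of line 4a3 (right), in percent, with exact 95% intervals, for isolated and dense-chain regions found in 4a3 only or shared with line 4a1 or 4a2. Hepatocyte Foxa3 peaks were more frequent in dense chains (9.45% of 4a3-only regions) than at isolated 4a3-only sites (2.32%), and Flag peaks were frequent only at shared regions (31.4% of the isolated ones).

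Taken library by library, isolated peaks of 1 line only overlapped a hepatocyte Foxa3 peak in 36 of 518 cases in EGS replicate 1 of line 4a3 (6.95%, 4.91 to 9.49). In EGS replicate 3 it was 5 of 9 (55.6%, 21.2 to 86.3), and in the non-EGS library 57 of 2421 (2.35%, 1.79 to 3.04). The 6 libraries of lines 4a1 and 4a2 used antibodies to Foxa1 or Foxa2, and the same rule was applied to them. For these lines the rule removes peaks in regions that hold a Foxa3 peak of line 4a3. At their isolated regions shared with another line, the shares ran from 0.162% to 1.77%. The part of the rule in the comparison was not tested. Among the isolated single-line peaks of these 6 libraries the lowest share was 0%, the median 0.853% and the highest 2%. All 3 libraries of line 4a3 were above all 6 of the others, the non-EGS library by a narrow margin. The mean was 21.6% ± 29.5 (SD, n = 3) against 0.927% ± 0.826 (SD, n = 6), a difference of 20.7 percentage points (exact permutation test over libraries, two-sided, p = 0.0238, and 84 assignments can give no smaller value). Adjusted over the 5 hepatocyte and Flag lists by Benjamini-Hochberg, p was 0.0595 and did not pass 0.05. The Flag list of line 4a2 met no isolated single-line peak of any library, so its test could show no difference. Counting it raises the adjusted values. The size of the difference rested on EGS replicate 3 with its 9 peaks. Without that library the difference was 3.73 points, and the smallest exact p that design allows is 0.0714. Set within EGS libraries, the means were 31.3% and 1.37%, and the smallest p that 15 assignments allow is 0.133. The 2 non-EGS libraries of the other lines gave 0% and 0.0984%. Titles also carry codes that the labels do not explain, and the test ignores them. EGS replicate 3 shares its code with EGS replicate 2 of line 4a1 (55.6% against 2%), and neither other library of line 4a3 shares one with a Foxa library of another line, so code and line cannot be told apart.

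For hepatocyte Foxa2 peaks the order was the opposite. The shares in line 4a3 were 0.193% in EGS replicate 1 and 0% in the other libraries, and those of the 6 other libraries lay between 0.283% and 5.26%. The groups did not overlap, and the difference was -1.62 percentage points (exact permutation p = 0.0238, again the smallest possible, adjusted p = 0.0595). The rule removes 4a3 peaks in regions that hold a Foxa1 or Foxa2 antibody peak of the other lines. At shared isolated regions the hepatocyte Foxa2 shares were 6.62% in EGS replicate 1 and 4.33% in the non-EGS library of line 4a3. They ran from 1.05% to 6.10% in the 6 other libraries. The part of the rule in the difference was not tested. For hepatocyte Foxa1 peaks the difference was -2.43 points (exact permutation p = 0.476, adjusted p = 0.595), and 1 library, EGS replicate 2 of line 4a1 with 14.0%, held nearly all of it.

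**Figure D3:**
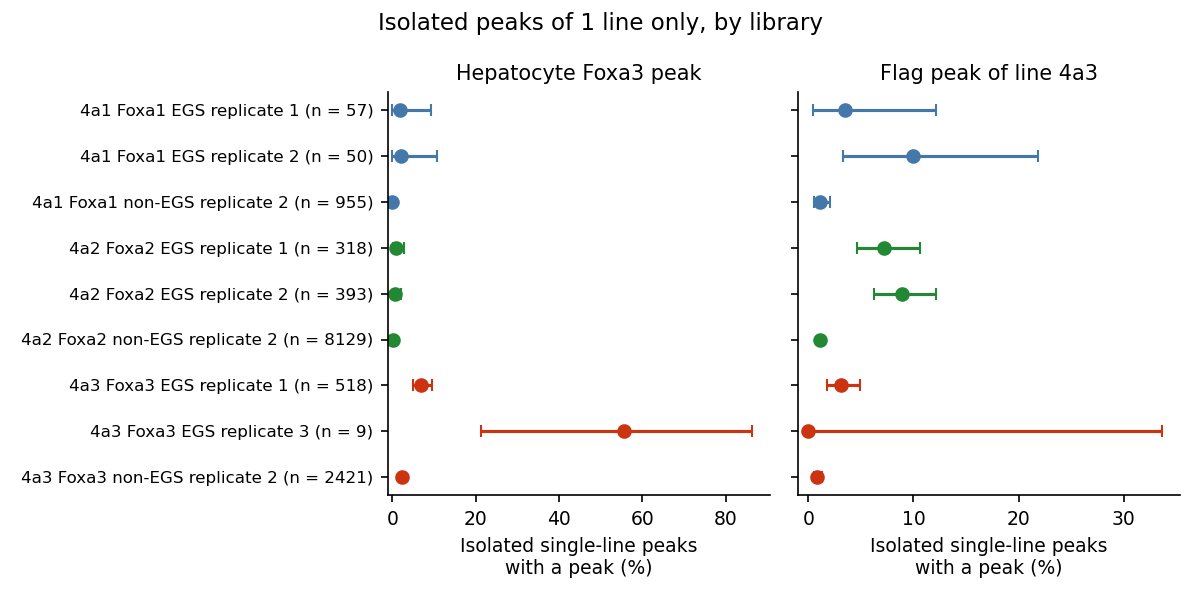
Percentage of each library's isolated single-line peaks that overlapped a hepatocyte Foxa3 peak (left) or a Flag peak of line 4a3 (right), with exact 95% intervals and the number of peaks in brackets. The 3 libraries of line 4a3 lie at 2.35%, 6.95% and 55.6% on the left, above the 6 others at 2% or less, and between 0% and 3.09% on the right.

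Within the isolated 4a3-only sites, those with a hepatocyte Foxa3 peak recurred at a higher share than the rest, although most recurring sites held no such peak. Of the 63, 30 (47.6%) were in 2 or 3 libraries of line 4a3, against 6.82% of the 2653 without such a peak. Read the other way, 30 of the 211 recurring sites (14.2%, 9.80 to 19.7) held a hepatocyte Foxa3 peak, against 27 of the 2209 seen in the non-EGS library alone (1.22%, 0.807 to 1.77) and 6 of the 294 seen in EGS replicate 1 alone (2.04%, 0.753 to 4.39). The 63 were also wider, with a median of 259 bp against 161 bp, and ranked higher, with a median percentile of 60.9 against 48.8. In the non-EGS list, 21 of 174 peaks in the highest score decile overlapped a hepatocyte Foxa3 peak (12.1%, 7.63 to 17.9), and between 0.778% and 2.54% in each of the 9 lower deciles. At shared isolated regions the intervals for recurring and other regions overlap, with 1.90% (0.954 to 3.38) of 578 regions in 1 list and 1.87% (0.227 to 6.59) of 107 in 2 lists. Width, score and recurrence move together here, and their separate parts in the overlap were not tested.

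From the side of the hepatocyte list, 73 of its 1091 Foxa3 peaks (6.69%) lay on an isolated 4a3-only site. These were mostly isolated in hepatocytes too. Dense runs by the same definition held 660 of the 1091 peaks (60.5%) but 11 of the 73 (15.1%). Of the 431 peaks outside runs, 62 (14.4%) lay on an isolated 4a3-only site, against 1.67% of those in runs. The rule had set aside 4a3-only regions in dense chains, and some hepatocyte Foxa3 peaks lay on those regions. Where runs of both cell types coincide, the rule itself therefore lowers the shares in runs, and its part was not tested. The peaks outside runs that met an isolated 4a3-only site ranked higher in the hepatocyte list, with a median percentile of 70.3 against 43.1 for those that did not. The top-ranked of all hepatocyte Foxa3 peaks lay on the site on chromosome 11 from 101519137 to 101519572.

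A further group of sites lay close to a hepatocyte Foxa3 peak without touching it. Of the 2653 that overlapped none, 62 (2.34%, 1.80 to 2.99) had one within 1 kb and 276 (10.4%, 9.27 to 11.6) within 100 kb. For the 672 shared isolated regions that overlapped none, the shares were 1.19% (0.515 to 2.33) and 8.48% (6.49 to 10.9), with intervals that overlap those of the 4a3-only sites. For 8318 isolated 4a2-only regions they were 0.216% (0.128 to 0.342) and 5.07% (4.61 to 5.57). Over all regions, overlapping ones included, the median distance to the nearest hepatocyte Foxa3 peak was 1231 kb for the 4a3-only sites, 1719 kb for the shared isolated regions and 2497 kb for the 4a2-only regions.

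Flag is an epitope tag, and 1 library of line 4a3 was made with an antibody to it. Its title shares a code with EGS replicate 1 but carries b2 where the others have a replicate number, and the labels explain neither. Which protein was tagged is not given in the sources used here. Of the 2716 isolated 4a3-only sites, 33 held one of its 883 peaks (1.22%, 0.838 to 1.70), below the background of 3.47% of all iHep regions and of 5.87% of the 4a3 regions. Of the 685 shared isolated regions of the same line, 31.4% did (27.9 to 35.0). High shares were not particular to line 4a3. In the libraries of lines 4a1 and 4a2, from 10.6% to 38.8% of peaks at isolated regions shared with another line met this Flag list. The 4a3-only regions in dense chains were as low as the isolated ones, with 1.18% (0.677 to 1.91). Isolated 4a2-only regions, from a line that the Flag library did not sample, reached 1.31% (1.08 to 1.58), and isolated 4a1-only regions 1.45% (0.817 to 2.39), both with intervals that include the value of the 4a3-only sites. Without the non-EGS library of line 4a3, 2.88% of the sites that the rule then gave held a Flag peak, and these are not all among the 2716.

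The gap between shared and 4a3-only sites held within both longer libraries of line 4a3. In EGS replicate 1, Flag peaks met 16 of 518 isolated 4a3-only peaks (3.09%) and 144 of 272 shared ones (52.9%). In the non-EGS library they met 21 of 2421 (0.867%) and 136 of 554 (24.5%). EGS replicate 3 gave 0 of 9, and held no shared isolated peak. Against the single-line peaks of lines 4a1 and 4a2, with a mean of 5.32% ± 3.92 (SD, n = 6), the mean of 1.32% ± 1.59 (SD, n = 3) was lower by less than the test can separate (difference -4.00 points, exact permutation p = 0.119, adjusted p = 0.198), and the libraries overlapped. The Flag list of line 4a2, with 21 peaks, met none of the isolated 4a3-only sites, which allows a share of up to 0.11%, against a background of 0.077% of all iHep regions and 0.247% of the 4a3 regions.

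Of the 33 sites with a Flag peak, 1 also held a hepatocyte Foxa3 peak, a count too small to set against the 2.32% of all sites. In all, 4 of the 33 (12.1%) were in 2 libraries, against 7.72% of the sites without a Flag peak. Their median width was 171 bp, against 162 bp. The 5 that ranked first by recurrence and score lay on 5 chromosomes. The first was on chromosome 1 (136456625 to 136457003) and the next on chromosome 17 (26078802 to 26079059). They were followed by sites on chromosome 15 (8393551 to 8393780), on chromosome 8 (19784694 to 19784907) and on chromosome 3 (96292477 to 96292611). The first 4 held peaks of EGS replicate 1 and the non-EGS library, at ranks 138 and 794, 657 and 1562, 649 and 2612, and 1004 and 1964. The one on chromosome 3 held EGS replicate 1 alone, at rank 50. No site held peaks of both Flag lists, and none held peaks of all 3 hepatocyte lists. For 2620 of the 2716 sites (96.5%), none of the 5 hepatocyte and Flag lists held a peak.

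Isolation is a matter of degree. Of the 2716 sites, 1614 (59.4%) lay in no chain, 748 (27.5%) in a chain of 2 peaks and 354 (13%) in a chain of 3, just inside the rule. A chain of exactly 4, just outside it, held 247 regions found in 4a3 only. The share with a hepatocyte Foxa3 peak was 1.73% (1.16 to 2.50) with 1 peak, 2.67% (1.64 to 4.10) with 2 and 4.24% (2.39 to 6.89) with 3. It was 8.91% (5.67 to 13.2) in chains of 4, 8.86% (6.86 to 11.2) in chains of 5 to 9 and 12.5% (9 to 16.8) in chains of 10 to 19. The point values were larger from 1 to 4 peaks, with overlapping intervals between neighbours, and chains of 4 and of 5 to 9 hardly differed. The share was 5.83% (2.17 to 12.2) of 103 regions in chains of 20 or more. The share recurring in at least 2 libraries was 6.44%, 9.22% and 10.7% for 1, 2 and 3 peaks, and 11.3% in chains of 4. The median width also differed, with 155, 172 and 191.5 bp for 1, 2 and 3 peaks, and its part in the overlap was not tested. Flag peaks showed no such order, with 1.36%, 1.07%, 0.847% and 0.81% for chains of 1, 2, 3 and 4, then 0.429%, 2.63% and 2.91% in the longer chains.

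**Figure D4:**
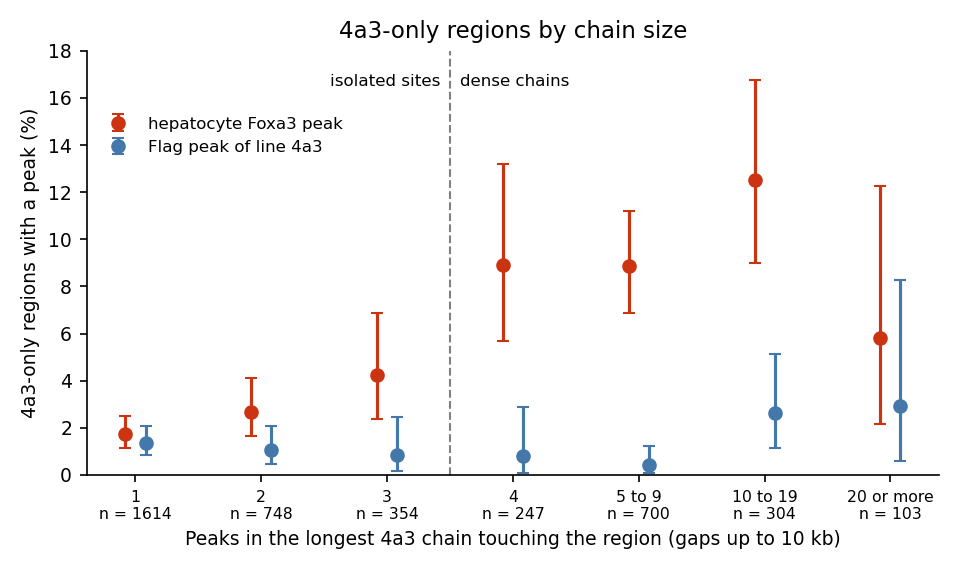
Percentage of 4a3-only regions with a hepatocyte Foxa3 peak or a Flag peak of line 4a3 (y axis, exact 95% intervals) by the number of peaks in the longest 4a3 chain that touches the region (x axis). The dashed line marks the rule, with isolated sites on its left; hepatocyte overlap was 1.73% for single peaks and 12.5% in chains of 10 to 19.

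Some sites lay next to peaks of the other lines. A 4a1 or 4a2 peak lay within 100 bp of 29 of the isolated 4a3-only sites (1.07%), within 1 kb of 220 (8.10%, 7.10 to 9.19) and within 10 kb of 733 (27.0%, 25.3 to 28.7), at a median distance of 31.8 kb. The nearest were on chromosome 9 (118962010 to 118962228, 4 bp away), chromosome 7 (56417983 to 56418112, 6 bp) and chromosome 4 (33335221 to 33335615, 10 bp). Just outside the rule, the smallest overlaps of a 4a3 peak with another line were 3 bp on chromosome 16 (23988367 to 23989029), 8 bp on chromosome 2 (30271265 to 30271747) and 21 bp on chromosome 17 (3114369 to 3115213). Few regions were this close to the boundary: 16 of the 685 shared isolated regions (2.34%) rested on an overlap under 50 bp, and the median of the largest overlap was 157 bp.

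The sites were spread over all autosomes and the X chromosome, with chromosome 11 standing out. It held 277 of the 2716 (10.2%, 9.09 to 11.4), at 2.27 sites per Mb, with the highest peak end of a chromosome taken as its length. The other autosomes lay between 0.682 per Mb on chromosome 13 and 1.41 per Mb on chromosome 17. The shared isolated regions had 5.84% (4.20 to 7.87) on chromosome 11, and the isolated 4a2-only regions 5.29% (4.82 to 5.80), where the density of 3.62 per Mb was within the range of 2.85 to 3.89 of the other autosomes. By library, 11.8% of the isolated 4a3-only peaks of EGS replicate 1, 55.6% of the 9 of EGS replicate 3 and 9.87% of those of the non-EGS library were on chromosome 11, against 1.75% to 8% of the isolated single-line peaks of the 6 other libraries. The whole lists of line 4a3 showed the same order, at 10.0%, 13% and 8.62%, against 4.24% to 6.73%. The hepatocyte Foxa3 and Foxa2 lists had 14.3% each, the hepatocyte Foxa1 list 1.81% (0.374 to 5.19) and the Flag list of line 4a3 5.78% (4.33 to 7.52). Chromosome 11 was singled out after its value was seen, so no test is given.

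The isolated 4a3-only sites on chromosome 11 resembled the rest in width (median 167 against 162 bp) and recurrence (8.66%, 5.63 to 12.6, against 7.67%, 6.64 to 8.80). Their share with a hepatocyte Foxa3 peak was 12 of 277 (4.33%, 2.26 to 7.45), against 2.09% (1.56 to 2.74) elsewhere, with overlapping intervals. The X chromosome held 25 sites (0.92%, 0.597 to 1.36), close to the 0.926% (0.676 to 1.24) of all 4a3 regions. It held 2.30% (1.99 to 2.65) of the isolated 4a2-only regions and 1.84% (1.64 to 2.06) of all iHep regions.

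**Figure D5:**
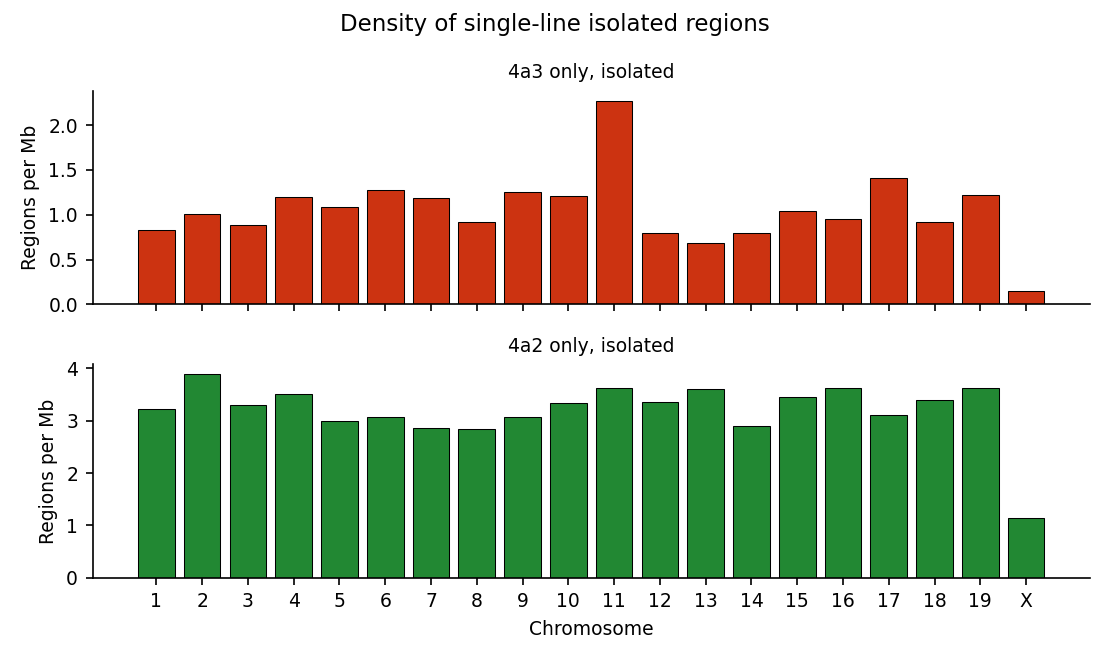
Isolated regions per Mb on each chromosome, for 4a3 only (top) and 4a2 only (bottom), with the highest peak end of any list taken as chromosome length. The 4a3-only sites reach 2.27 per Mb on chromosome 11 against at most 1.41 on the other autosomes, while the 4a2-only regions reach 3.62 there against at most 3.89.

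Distance to the dense chains of line 4a3 depends on the rule, which removes 4a3 regions that touch one but not regions of other lines. A dense 4a3 chain was within 100 kb of 223 of the 2716 sites (8.21%, 7.21 to 9.31) and of 51 of the 685 shared isolated regions (7.45%, 5.59 to 9.67). For isolated 4a2-only regions the share was 4.49% (4.05 to 4.96), and for isolated 4a1-only regions 2.91% (1.97 to 4.13). The first 2 intervals overlap, and both lie above that of the 4a2-only regions. Within 10 kb the order was the opposite, with 0.515% (0.282 to 0.863) of the isolated 4a3-only sites and 0.804% (0.624 to 1.02) of the isolated 4a2-only regions, with overlapping intervals. A peak within 10 kb of a chain of its own list joins that chain, so the rule itself keeps the share of the 4a3-only sites low. The 1110 sites with another of the set within 10 kb lay in groups of up to 5, so sites close together are not independent of each other.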

How the data were processed

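Chromatin immunoprecipitation peak lists of 14 of the 24 samples were used, with no file for the 10 inputs. The deposited lists give a position and a score per peak on mm9. BWA 0.6.2, MACS2 2.1.0 and bedtools 2.16.2 are named in the submitters' processing notes, with no role or setting. The score is the authors' deposited value, of unstated scale (its lowest value is 50.0 in the Flag list of line 4a3 and between 5.00 and 5.87 in the others), and was used only for ranks. The calling threshold and the use of input were not stated in these sources. Depth is unknown.

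Lists were merged and compared in Python 3.11.15 with numpy 2.4.6, pandas 2.3.3 and scipy 1.17.1, by overlap of at least 1 bp. These steps were tested on simulated data. Starts are 1-based. Shares carry exact Clopper-Pearson 95% intervals. For each of the 9 iHep Foxa libraries, the share of its isolated single-line peaks that overlap a hepatocyte or Flag list was compared, 3 libraries of line 4a3 against 6, by exact permutation. The labels do not say that replicates came from separate cultures, so p-values reflect only how far these samples differ, which may be technical.

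The sites, lists and tests were chosen with earlier results of these data known. Named sites are those in all 3 libraries; the first 5 with a hepatocyte Foxa3 peak (the same sites) or a Flag peak, by libraries and mean percentile; the widest 3; the first 3 seen in 1 library; and those nearest the limits of the rule, except 3 in 1 chain. Annotation and sequence of mm9 were not used here.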

Additional observations from a re-analysis of the deposited data

How the results depend on the processing

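The number of isolated 4a3-only sites stayed within 1.5 times of 2716 in 12 of 15 alternatives, and was 1580 when each list kept its top-scoring 50% and 683 with EGS lists only. Leaving out 1 library at a time gave 626 to 2922, the lowest without the non-EGS library of line 4a3 and the highest without that of line 4a2. Dropping the non-EGS library of line 4a3, as with EGS lists only, returns regions that only its dense chains had set aside. The sites are then not all among the 2716. The share of sites in at least 2 libraries was 10.8% with the top-scoring 50%, 11.3% when peaks within 1 kb were merged and 1.02% with EGS lists only. It ran from 0.204% (without EGS replicate 1 of line 4a3) to 7.80% when 1 library was left out, and was 1.12% without the non-EGS library of line 4a3. The share with a hepatocyte Foxa3 peak was 3.73% with the top-scoring 50% and 9.37% with EGS lists only. It ran from 2.29% to 10.1% when 1 library was left out, the highest without the non-EGS library of line 4a3. The share with a Flag peak of line 4a3 was 4.83% with EGS lists only, and 0.857% to 2.88% when 1 library was left out, again the highest without that library. Requiring peaks to share 50% of the narrower one, chains of at least 3 peaks and gaps of up to 20 kb moved none of these 4 values beyond these limits.

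Both differences between libraries kept their direction in all 15 alternatives and passed an adjusted 0.05 in none. Some of these settings could not pass. The smallest possible exact permutation p was 0.0714 without 1 library of line 4a3 and 0.133 with EGS lists only. The difference for hepatocyte Foxa3 peaks ran from 3.73 (without EGS replicate 3 of line 4a3) to 27.2 percentage points when 1 library was left out. It was 35.1 with chains of at least 3 peaks. EGS replicate 3 then kept only its sites on chromosome 5 (from 115939268) and on chromosome 11 (from 69571649), with 1 peak each. That value therefore rests on very few peaks. That for Flag peaks ran from -5.85 to -3.16. No paired analysis was possible because the labels do not say what a replicate number or title code marks, and only 1 library of line 4a3 shares a code with a Foxa library of another line. Since depth is unknown, a site absent from a list may have been missed there.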
